A study of Arabidopsis thaliana with 12 samples.

Results

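Nuclei of the Arabidopsis thaliana root cortex that had gone beyond 4C, the 8C and 16C nuclei, were set against the 2C and 4C nuclei of the same tissue. The letter C stands for the DNA amount of a haploid genome. The 6 arrays titled 8C or 16C formed one side and the 6 titled 2C or 4C the other, so that all 12 arrays of the series took part, 3 for each of 4 classes. The change of a transcript is the mean of the 8C and 16C class means minus the mean of the 2C and 4C class means, in log2 units, and it was tested over the 22746 probe sets that are not controls. All 4 groups came from plants of the Col-0 ecotype, aged 5 days, that carry pCO2:YFP-H2B, a yellow fluorescent histone H2B under the promoter of the cortex gene CO2, and no group lacked this reporter. Nuclei were freed from 10 g of pooled, excised roots and sorted by their fluorescence and their DNA content, and nuclear RNA of about 200000 nuclei was amplified in 2 rounds before it was hybridised to ATH1 arrays. Each array thus stands for pooled plants, and although the titles number 3 biological replicates per class, nothing in the labels tells whether they came from separate plants, sorts or days.

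A diploid cell has 2C nuclei before and 4C nuclei after it has copied its DNA, whether it is going to divide, has stopped dividing, or is on its way to a further copy. In the endocycle, cells copy their DNA again without mitosis, and in roots this goes together with leaving the meristem and with cell growth. Nuclei of 8C and 16C have therefore passed through at least 1 endocycle, whereas cells that still divide lie among the 2C and 4C nuclei. Cyclin-dependent kinases and the transcription of their partners govern the choice between mitosis and the endocycle, and replication proteins serve both.

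Of the 22746 probe sets, 5715 passed the test between the sides (limma, Benjamini-Hochberg adjusted p of at most 0.05), which is 25.1%. A total of 2759 (12.1%) were higher in 8C and 16C and 2956 (13.0%) lower. Falls were the larger changes. The median change was 0.55 among the probe sets called higher and -0.72 among those called lower, against 0.04 over all probe sets. At least 2-fold changes numbered 600 higher and 902 lower, at least 4-fold changes 54 and 162, and at least 8-fold changes 1 and 18. The 6 arrays of one side lay wholly above or wholly below the 6 of the other for 1091 of the probe sets called higher and for 1268 of those called lower, against 1167 (5.13%) and 1290 (5.67%) of all probe sets, called or not, which together are 2457 (10.8%). RMA makes the distributions of the arrays alike, so a change in the total RNA of a nucleus is not seen in these values. A class pools many nuclei, and fewer nuclei with a transcript cannot be told apart from less of it in each nucleus.

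**Figure D1:**
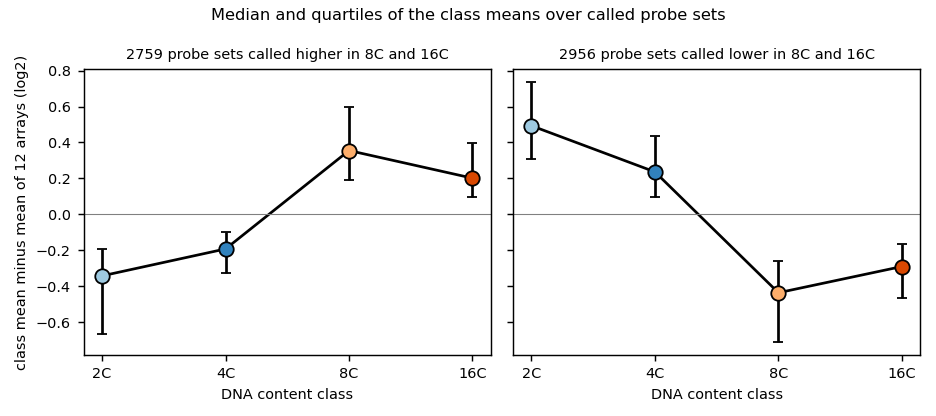
Class means of the called probe sets, each minus that probe set's mean over the 12 arrays (log2), for the DNA content classes 2C, 4C, 8C and 16C; points are medians over probe sets and bars run from the lower to the upper quartile. Among probe sets called higher (left) the medians were -0.34, -0.19, 0.36 and 0.20, and among those called lower (right) 0.49, 0.24, -0.44 and -0.29, so that 8C, not 16C, lies farthest from 2C and 4C.

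Fewer probe sets passed within the sides, where 3 arrays stand against 3. Between 16C and 8C, limma called 59 probe sets (0.259%, with 2424 at an unadjusted p below 0.05), and between 4C and 2C it called 137 (0.602%, with 3242 at an unadjusted p below 0.05). The first count rests on few arrays. It was 6 with 16C replicates 1 and 2 averaged, as it was without 16C replicate 2, and 776 with array weights, and the count between 4C and 2C was 49 with that pair averaged. For 2613 of the probe sets called higher (94.7%) both the 8C and the 16C mean exceeded both the 2C and the 4C mean, and for 2841 of those called lower (96.1%) both lay below. The change between sides was larger than either difference within a side for 2288 and 2461 of them. These probe sets were called on the same class means, so this order is largely set by the call and is no separate result. The extreme class was more often 8C than 16C. It held the highest class mean for 1912 of the 2759 probe sets called higher, where 16C held it for 846, and it held the lowest for 2090 of the 2956 called lower, where 16C held it for 862. The plot of class means shows this peak at 8C in both directions.

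Names could be given to 13355 genes, each through its probe set with the highest mean. The annotation used here covers 63.3% of the protein-coding genes known by a locus code and 14.6% of those with a symbol of their own, so most gene groups are seen through few of their members. A gene counts as measured here if a single-gene probe set carries its name. Genes not measured in this sense may still lie among the probe sets that name no gene or several. Of the 13355 genes, 3049 (22.8%) were called, 1541 higher (11.5%) and 1508 lower (11.3%), with a median change of 0.05 over all of them. The arrays of the sides lay apart for 626 genes that were higher (4.69%) and 658 that were lower (4.93%), together 1284 (9.61%).

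Some measures of the RNA samples moved with the sides as well. Scores on the leading principal component (50.3% of the variance) were 27.4 to 61.0 for the 8C and 16C arrays and -89.6 to -6.99 for the 2C and 4C arrays. Actin gave more signal at its 3' than at its 5' end, by 3.61 ± 0.24 in 8C and 16C and by 4.23 ± 0.38 in 2C and 4C (log2, SD, n = 6; two-sided exact permutation p = 0.00866, adjusted p = 0.0217 over 5 measures). By class this actin difference averaged 4.553 (2C), 3.905 (4C), 3.422 (8C) and 3.796 (16C), so that it too was lowest in 8C. Its bearing on the peak of the called probe sets at 8C was not tested. Poly-A spikes, bacterial transcripts mixed in before amplification, averaged 9.02 ± 0.73 in 8C and 16C and 10.7 ± 0.51 in 2C and 4C (SD, n = 6; two-sided exact permutation p = 0.00433, adjusted p = 0.0217), where 0.00217 is the smallest p that this test can give. GAPDH 3' minus 5' differences (5.31 against 5.03), hybridisation spikes (9.83 against 10.0) and organelle transcripts (6.76 against 7.14) did not pass, with adjusted exact permutation p-values of 0.233, 0.233 and 0.357. With the poly-A mean of each array as a covariate, 802 probe sets were called, 377 higher and 425 lower, and 5653 of the 5715 kept their sign. With the actin difference as a covariate, limma called 0, with 1568 at an unadjusted p below 0.05, and 5084 kept their sign, while the median standard error of the changes was 0.40, against 0.14 without it. Within 16C, replicates 1 and 2 had a correlation of 0.996, above any other pair of one class. Counted as 1 sample, they left 4162 calls, of which 4159 were among the 5715. The 9 measured reference genes, commonly used as stable controls, gave 0 calls, against 22.8% of all genes, and a median change of -0.02.

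**Figure D2:**
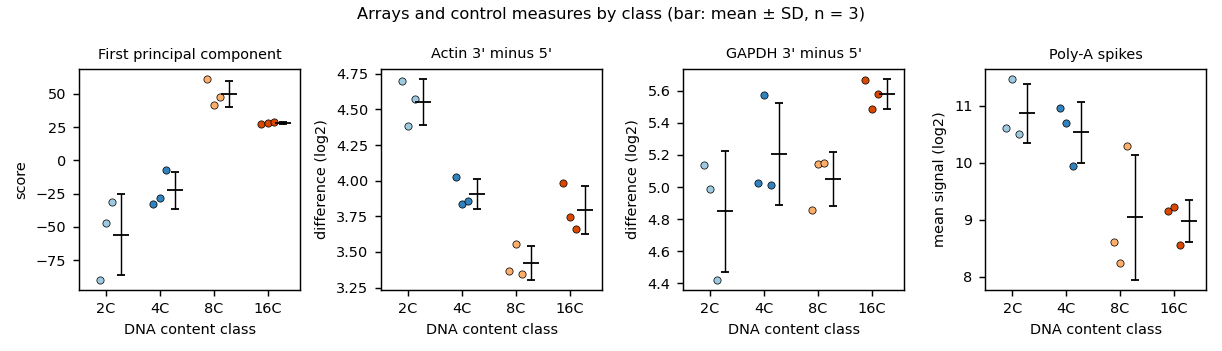
Values of each of the 12 arrays by DNA content class, with the mean ± SD of 3 arrays beside the points: score on the first principal component, actin and GAPDH 3' minus 5' differences (log2), and mean signal of the poly-A spikes (log2). The 8C and 16C arrays score 27.4 to 61.0 on the component and the 2C and 4C arrays -89.6 to -6.99, and the poly-A spikes average 9.02 in 8C and 16C and 10.7 in 2C and 4C.

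Genes of mitosis were lower in 8C and 16C nuclei. Of 48 listed genes 10 were measured, of which 6 fell, against 11.3% of all genes. Another 4 did not pass, 0 rose, and the median change was -1.18. This list and those below were chosen with earlier results of these data known. Their shares are therefore no independent test, and they rest on few genes. The largest fall was that of AT2G36200, a gene of the kinesin-5 class of motors that slide spindle microtubules apart. Its signal was 4.95, 5.58 and 6.15 (lowest, median and highest of 6 arrays, log2) in 8C and 16C, against 6.44, 8.32 and 9.67 in 2C and 4C. The 2 sets of arrays did not overlap, and the change was -2.52 ± 0.35 (SE, limma adjusted p = 0.000821), or 5.74-fold lower. AUR1, an Aurora kinase of the spindle and cell plate, had 5.98, 6.39 and 6.54 in 8C and 16C, against 6.89, 7.48 and 8.02 in 2C and 4C, again without overlap (change -1.17 ± 0.21, adjusted p = 0.00337). Its paralog AUR2 fell by 1.57 ± 0.37 (adjusted p = 0.0118), but its arrays overlapped. By class, AUR2 averaged 7.18 ± 0.96 (2C), 8.99 ± 0.74 (4C), 5.75 ± 0.59 (8C) and 7.27 ± 0.48 (16C), with SDs of 3 arrays, so the 16C mean was no lower than the 2C mean. SCL28 (AT1G63100), a GRAS transcription factor of the mitotic programme, fell by 1.18 ± 0.26 (adjusted p = 0.00893). 3xHMG-box2, a protein that binds mitotic chromosomes, fell by 1.83 ± 0.44 (adjusted p = 0.0137), and BUBR1, of the spindle checkpoint, by 0.88 ± 0.23 (adjusted p = 0.0209). 3xHMG-box1 changed by -1.19 ± 0.41, BUB3.1 by -0.48 ± 0.23, AUR3 by -0.30 ± 0.15 and KINESIN-12B by -0.18 ± 0.10, and none of these 4 passed (adjusted p = 0.0593, 0.149, 0.172 and 0.205). For all 6 mitotic genes that fell, the 4C mean was above the 2C mean. None of these 6 steps passed, with limma adjusted p-values of 0.210 for AT2G36200, 0.666 for AUR1, 0.151 for AUR2, 0.311 for SCL28, 0.245 for 3xHMG-box2 and 0.242 for BUBR1.

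**Figure D3:**
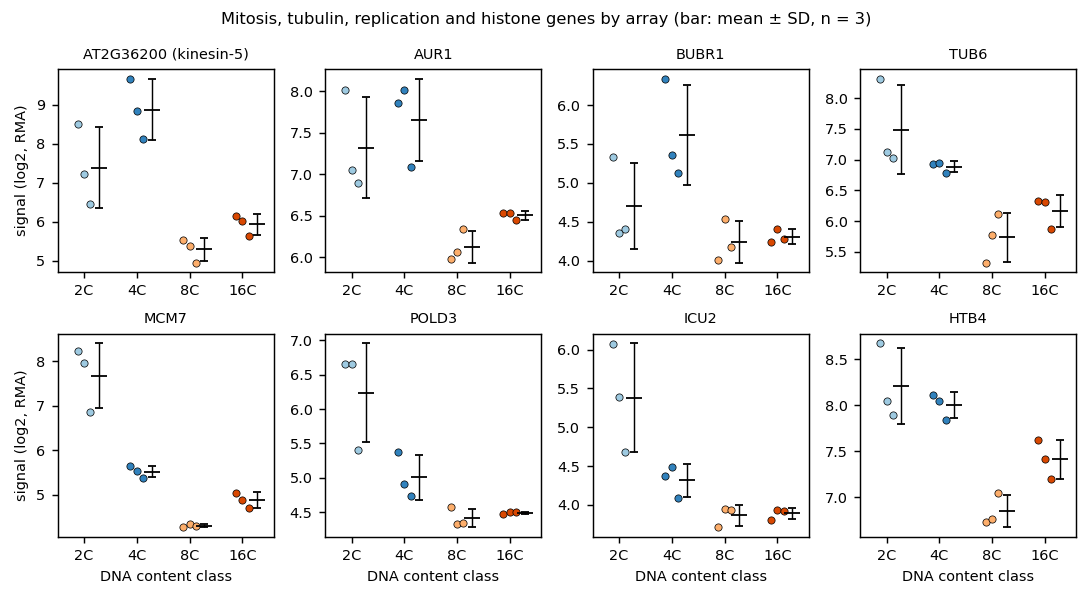
Signal (log2, RMA) of 8 genes of mitosis, tubulin, DNA replication and histones on each of the 12 arrays by DNA content class, with the mean ± SD of 3 arrays beside the points. AT2G36200 lies at 4.95 to 6.15 in 8C and 16C and at 6.44 to 9.67 in 2C and 4C, and BUBR1 alone among the 8 has arrays of both sides in 1 range.

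KICP-02, VIIIB and FU, which are not in that list, were among the 15 largest falls of genes with a symbol. KICP-02, a kinesin-related gene, had 4.06, 4.95 and 5.34 in 8C and 16C, against 6.29, 7.12 and 7.97 in 2C and 4C (change -2.28 ± 0.21, limma adjusted p = 8.86e-05). VIIIB, a class VIII myosin, fell by 2.64 ± 0.25 (adjusted p = 0.000102). FU, the FUSED kinase that is needed to build the cell plate, fell by 2.04 ± 0.26 (adjusted p = 0.000492), although its second probe set changed by 0.09 and was not called. Tubulins, the subunits of microtubules, had 5 of 7 measured genes lower, against 11.3% of all genes. There were 0 higher and 2 that did not pass, with a median change of -0.71. A set of 7 genes is too few for a share, so the count stands for these members only. TUB6 had 5.33, 5.99 and 6.33 in 8C and 16C, against 6.78, 6.99 and 8.32 in 2C and 4C (change -1.23 ± 0.23, adjusted p = 0.00364). TUA6 fell by 0.71 ± 0.16, TUB7 by 0.85 ± 0.22, TUB9 by 0.95 ± 0.25 and TUB5 by 0.66 ± 0.20. Tubulin genes are close paralogs, and the probe sets of all 7 are of the type made for a single transcript. The IQD genes code for proteins that bind calmodulin and many of which sit on microtubules. Among 15 measured IQD genes 5 fell, against 11.3% of all genes, while 0 rose and 10 did not pass, with a median of -0.02. The largest fall was that of iqd33, which had 4.18, 5.02 and 5.90 in 8C and 16C, against 6.43, 7.67 and 8.44 in 2C and 4C (change -2.57 ± 0.37, adjusted p = 0.00104). IQD28 fell by 1.09 ± 0.20, IQD30 by 1.07 ± 0.21 and IQD31 by 0.45 ± 0.13. With the actin difference as a covariate, the changes of AUR2, TUB7 and TUB9 turned positive, at 0.29, 0.23 and 0.045. AT2G36200, TUB6 and iqd33 stayed negative, at -0.87, -0.28 and -0.14, none of them called. With the poly-A covariate AT2G36200, TUB6 and iqd33 changed by -2.38, -0.95 and -2.47 and were not called (limma adjusted p = 0.0811, 0.231 and 0.0856), whereas KICP-02 and VIIIB, at -2.41 and -1.75, were (adjusted p = 0.0162 and 0.0251).

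Genes of DNA replication were lower in 8C and 16C nuclei as well. Of 50 listed genes 9 were measured, of which 6 fell, against 11.3% of all genes. Another 3 did not pass, 0 rose, and the median change was -1.15. MCM7, a subunit of the helicase that opens the double strand, which the gene table calls PRL, had 4.27, 4.52 and 5.05 in 8C and 16C, against 5.38, 6.25 and 8.23 in 2C and 4C. The arrays did not overlap, and the change was -2.01 ± 0.20 (limma adjusted p = 0.00013). By class, MCM7 averaged 7.68 ± 0.73 (2C), 5.52 ± 0.13 (4C), 4.30 ± 0.03 (8C) and 4.88 ± 0.17 (16C), with SDs of 3 arrays. POLD3, a subunit of DNA polymerase delta, had 4.33, 4.49 and 4.57 in 8C and 16C, against 4.74, 5.39 and 6.65 in 2C and 4C (change -1.17 ± 0.21, adjusted p = 0.00323). ICU2, the catalytic subunit of polymerase alpha, fell by 0.97 ± 0.19 (adjusted p = 0.00575), and POLA3, a primase subunit of the same polymerase, by 1.16 ± 0.23 (adjusted p = 0.00497). The listed gene AT3G42660 fell by 1.15 ± 0.20 (adjusted p = 0.00275). TOPII, the topoisomerase that separates sister chromosomes, fell by 1.28 ± 0.30 (adjusted p = 0.0122). These 6 genes fell into 2 kinds by their 2C and 4C means. MCM7, POLD3, ICU2, POLA3 and AT3G42660 were highest in 2C, whereas TOPII was highest in 4C, at 7.13 ± 0.95, against 5.66 ± 0.65 in 2C. Of the 6, MCM7 and POLA3 also passed between 4C and 2C (limma adjusted p = 0.0129 and 0.0435), and with 16C replicates 1 and 2 averaged MCM7 did (0.0359) and POLA3 did not (0.0823). PSF2 changed by -0.26, AT5G26680 by -0.35 and AT1G07270 by -0.09, and these 3 did not pass.

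Histone genes package new DNA, and most of their transcription is tied to DNA copying. Of 36 listed genes 15 were measured, of which 8 fell, against 11.3% of all genes. Another 7 did not pass, 0 rose, and the median change was -0.47. HTB4, an H2B gene, had 6.74, 7.12 and 7.62 in 8C and 16C, against 7.84, 8.05 and 8.67 in 2C and 4C, without overlap (change -0.97 ± 0.14, limma adjusted p = 0.000932). HTB1, HTB5 (AT2G37470), HTB11 and HTB2, also of the H2B family, fell by 0.82 ± 0.21, 0.71 ± 0.15, 0.81 ± 0.24 and 0.55 ± 0.17. The linker histones H1.1 (AT1G06760) and H1.2 (AT2G30620) fell by 0.96 ± 0.17 (adjusted p = 0.0033) and 0.47 ± 0.11 (adjusted p = 0.0116). HIS1-3, a stress-responsive linker histone, changed by -1.73 ± 0.56 (adjusted p = 0.0454), but its 8C arrays had an SD of 1.65. HTR12, the histone H3 of centromeres, changed by -0.21 ± 0.08 and MGH3, known from pollen, by 0.18 ± 0.28, and neither passed. Nor did the H2B genes AT1G08170 (0.30), AT5G02570 (0.24), AT3G09480 (0.12), AT3G53650 (-0.08) and AT2G28720 (-0.19). No listed H2A gene had a single-gene probe set with its name, and of the listed H3 genes HTR12 and MGH3 alone did. The reporter itself makes an H2B transcript in all classes, and the labels do not say which H2B gene it holds, so its share in an H2B signal was not measured.

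Subunits of RNA polymerases make up the enzymes that transcribe genes. Of 12 measured subunits of RNA polymerases 3 fell and 9 did not pass. NRPD7, of the polymerase of RNA-directed DNA methylation, had 4.94, 5.07 and 5.58 in 8C and 16C, against 5.69, 5.81 and 6.26 in 2C and 4C, without overlap (change -0.72 ± 0.11, limma adjusted p = 0.00144). NRPB9B and NRPB6A, of RNA polymerase II, fell by 0.39 ± 0.09 and 0.52 ± 0.13. Of 9 measured genes named CHR, ATPases that move nucleosomes, 2 fell and 7 did not pass. CHR17 had 7.42, 7.57 and 7.74 in 8C and 16C, against 7.83, 8.16 and 8.79 in 2C and 4C (change -0.70 ± 0.14, adjusted p = 0.00558), and CHR23 fell by 0.75 ± 0.18 (adjusted p = 0.0149). Shares of 3 in 12 and 2 in 9 stand against 11.3% of all genes, and rest on few genes.

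The regulators of the endocycle could hardly be seen. Of 37 listed genes 3 were measured and 0 passed. SIM, which blocks mitotic kinase activity and favours endocycles, had 6.24, 6.52 and 6.69 in 8C and 16C, against 5.86, 6.36 and 7.32 in 2C and 4C, and its change of 0.09 ± 0.21 was within the spread of the arrays (limma adjusted p = 0.795). BIN4, part of a topoisomerase complex needed for high DNA contents, changed by -0.29 ± 0.22 (adjusted p = 0.348), and the listed gene AT1G08180 by 0.00 ± 0.07 (adjusted p = 0.986).

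**Figure D4:**
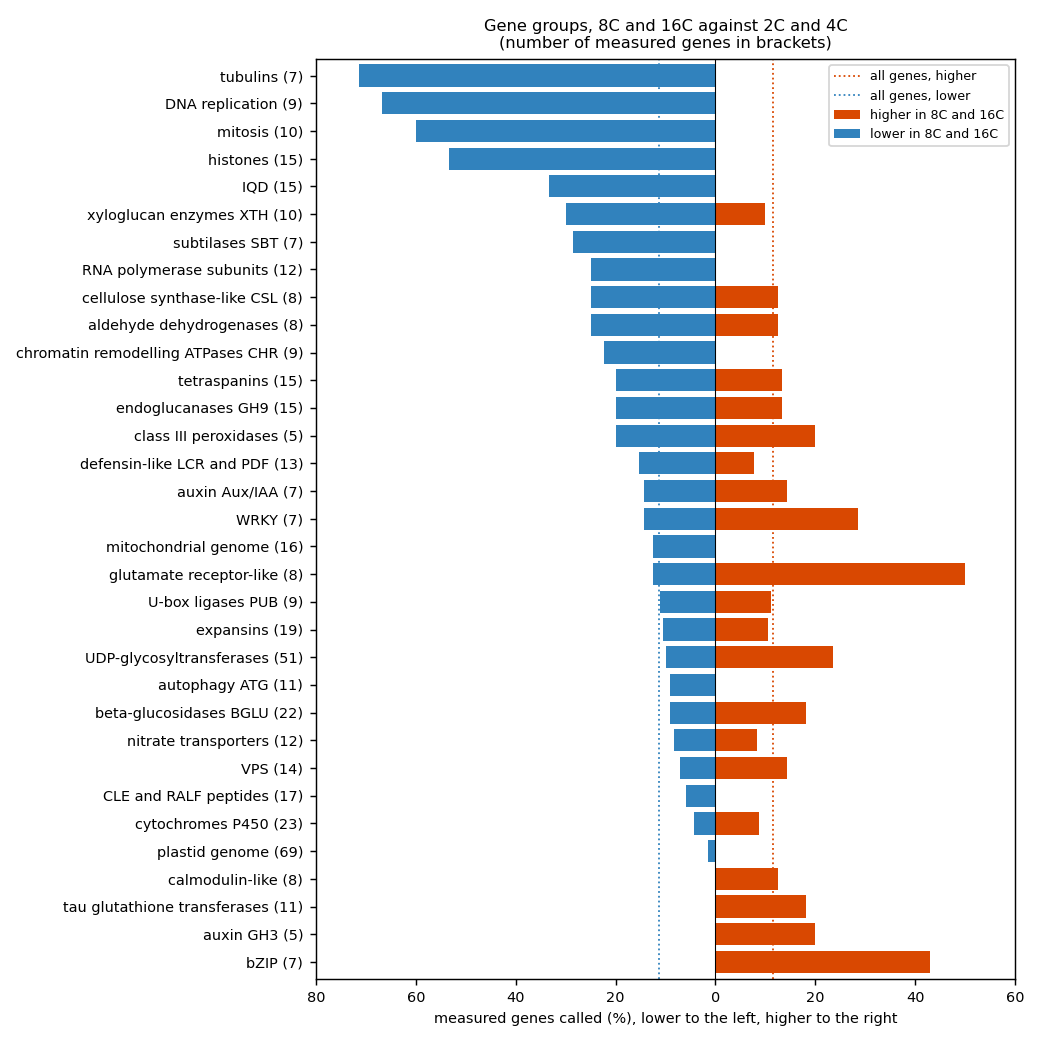
Percent of the measured genes of each group that limma called lower (blue, to the left) or higher (orange, to the right) in 8C and 16C against 2C and 4C, with the number measured in brackets; dotted lines mark the shares of all 13355 genes, 11.5% higher and 11.3% lower. Tubulins (5 of 7), DNA replication (6 of 9), mitosis (6 of 10) and histones (8 of 15) have the longest bars to the left, and glutamate receptor-like genes (4 of 8) and bZIP genes (3 of 7) the longest to the right. Lists and their members were chosen with earlier results of these data known, so the shares are no independent test. Groups of 7 genes are too few for a share.

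Over all genes the largest falls among those with separated arrays were found in AT3G48970, AT1G69080, LCR69, AT5G50010 and AT1G63420. AT3G48970 had 4.06, 4.69 and 5.08 in 8C and 16C, against 7.07, 8.49 and 10.65 in 2C and 4C, a change of -3.90 ± 0.53 (limma adjusted p = 0.00071), or 15.0-fold lower. AT1G69080 changed by -3.29 ± 0.26, AT5G50010 by -3.14 ± 0.24 and AT1G63420 by -3.13 ± 0.21, all past the test. LCR69, a small cysteine-rich protein of the defensin-like kind, had 4.81, 5.48 and 6.30 in 8C and 16C, against 6.93, 8.80 and 10.68 in 2C and 4C (change -3.28 ± 0.31, adjusted p = 9.85e-05). LCR69 also passed for 4C minus 2C, at -2.51 (limma adjusted p = 0.0426, but 0.0774 with 16C replicates 1 and 2 averaged). Its neighbour in name LCR68 fell by 2.40 ± 0.54 (adjusted p = 0.00986), whereas 10 of the 13 measured genes of this kind did not pass and PDF1.4, a plant defensin, rose by 0.30 ± 0.06. Of all genes 22.8% were called.

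Enzymes, transporters and a kinase followed among genes that have a symbol. MGL, methionine gamma-lyase, which breaks down methionine, had 7.35, 8.29 and 9.03 in 8C and 16C, against 9.97, 11.19 and 11.8 in 2C and 4C (change -2.85 ± 0.15, limma adjusted p = 1.05e-05). By class, MGL averaged 11.65 ± 0.16 (2C), 10.49 ± 0.48 (4C), 7.52 ± 0.20 (8C) and 8.92 ± 0.10 (16C), with SDs of 3 arrays. It passed within both sides as well, with -1.16 ± 0.21 for 4C minus 2C (adjusted p = 0.0435) and 1.39 ± 0.21 for 16C minus 8C (adjusted p = 0.03). With 16C replicates 1 and 2 averaged MGL passed in neither (adjusted p = 0.0824 and 0.162). DPE1, the plastid enzyme that remodels maltose chains from starch, fell by 2.88 ± 0.23, and TMT2, a sugar transporter of the vacuole membrane, by 1.97 ± 0.19. WNK9, a protein kinase, fell by 2.92 ± 0.24. SETH6 fell by 3.02 ± 0.32. BAT1, an acyltransferase that acts on brassinosteroid hormones, fell by 2.76 ± 0.31. FMO, a flavin-containing monooxygenase, fell by 2.21 ± 0.19. For 4C minus 2C, FMO changed by -1.68 (limma adjusted p = 0.0331, but 0.0703 with 16C replicates 1 and 2 averaged). The arrays of both sides lay apart for all of these 7 genes, which the rule required.

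The largest rises were smaller than the largest falls. AT1G51270 had 9.67, 9.96 and 10.39 in 8C and 16C, against 5.31, 7.32 and 7.93 in 2C and 4C, a change of 2.99 ± 0.25 (limma adjusted p = 6.05e-05), or 7.95-fold higher. A second probe set of AT1G51270 rose by 0.98, and likewise AT5G49780 rose by 2.96 ± 0.32 in one probe set and by 0.83 in the other. AT1G51820, AT1G61550 and AT3G51660 rose by 2.94 ± 0.29, 2.62 ± 0.46 and 2.54 ± 0.38. OASA2, named for cysteine synthesis, had 12.42, 12.46 and 12.81 in 8C and 16C, against 9.46, 10.72 and 11.78 in 2C and 4C (change 1.97 ± 0.18, adjusted p = 8.86e-05), and it was also higher in 4C than in 2C by 1.60 ± 0.25 (adjusted p = 0.0317, and 0.0659 for OASA2 with 16C replicates 1 and 2 averaged). GLX2-4, of the glyoxalase kind that detoxifies reactive carbonyls, rose by 1.87 ± 0.28. CHLM, a methyltransferase of chlorophyll synthesis, rose by 1.76 ± 0.29, and CCOAMT, a methyltransferase of the lignin precursor pathway, by 1.60 ± 0.28.

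Immune and stress regulators with a symbol are given next. SAG101, a lipase-like partner in immune signalling, had 8.27, 8.79 and 9.12 in 8C and 16C, against 5.31, 6.94 and 8.16 in 2C and 4C (change 1.86 ± 0.26, limma adjusted p = 0.0009). WRKY47, a transcription factor, had 7.89, 8.41 and 9.18 in 8C and 16C, against 5.81, 7.19 and 7.66 in 2C and 4C (change 1.57 ± 0.22, adjusted p = 0.0009). Of 7 measured WRKY genes 2 rose, 1 fell and 4 did not pass. Over all genes 11.5% were higher and 11.3% lower, and 7 members are too few for a share. WRKY6, known for phosphate and senescence responses, rose by 1.04 ± 0.24 (adjusted p = 0.0117), with class means of 7.13 ± 0.75 (2C), 9.08 ± 0.28 (4C), 9.59 ± 0.44 (8C) and 8.70 ± 0.17 (16C), so that its 4C mean was above its 16C mean. ZAP1, also called WRKY1, fell by 0.68 ± 0.13 (adjusted p = 0.005). Of 7 measured bZIP factors 3 rose, 0 fell and 4 did not pass, again too few for a share. BZIP60, which drives the response to unfolded proteins in the endoplasmic reticulum, had 8.50, 9.11 and 9.43 in 8C and 16C, against 7.56, 8.04 and 8.47 in 2C and 4C (change 1.02 ± 0.19, adjusted p = 0.00386). The other membrane-bound stress factors BZIP28 and BZIP17 changed by 0.27 ± 0.21 and 0.16 ± 0.07 and did not pass. BZIP24 rose by 0.96 ± 0.13 and BZIP53 by 0.65 ± 0.20. Pirin (PRN), a nuclear protein, rose by 1.33 ± 0.16, and SFP1, a sugar porter of senescing tissue, by 1.27 ± 0.11.

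**Figure D5:**
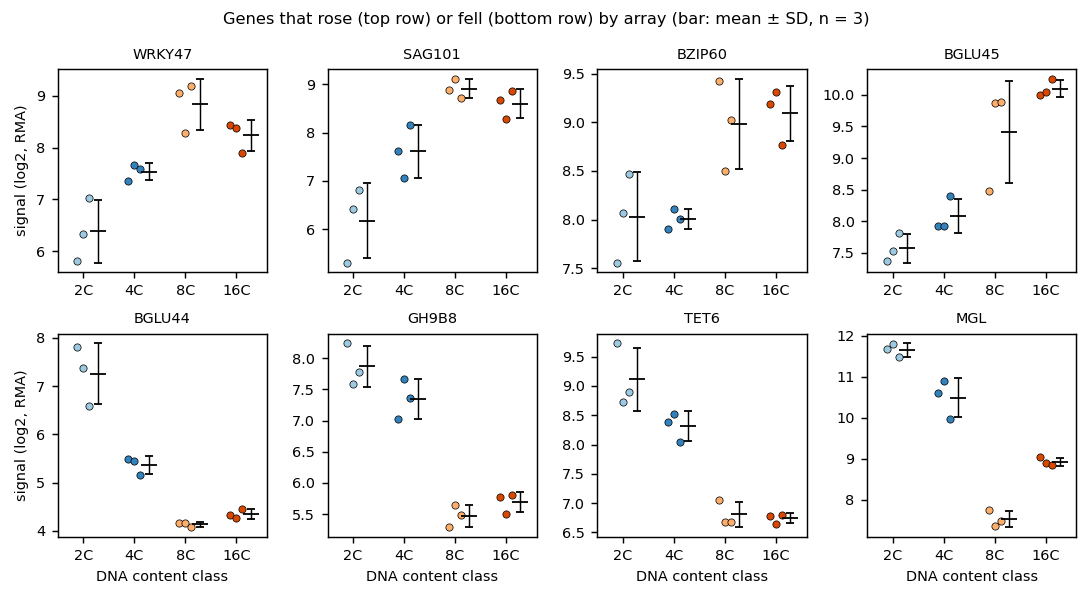
Signal (log2, RMA) of 4 genes that rose (top: WRKY47, SAG101, BZIP60 and BGLU45) and 4 that fell (bottom: BGLU44, GH9B8, TET6 and MGL) on each of the 12 arrays by DNA content class, with the mean ± SD of 3 arrays beside the points. Each of the 8 has the 6 arrays of 8C and 16C wholly on one side of the 6 of 2C and 4C, by as little as 8.50 against 8.47 for BZIP60.

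Enzymes that remove or add sugars had members in both directions, to be read against the 11.5% of all genes that were higher and the 11.3% that were lower. Of 22 measured beta-glucosidases of the BGLU family, which free molecules from a bound glucose, 4 rose, 2 fell and 16 did not pass, with a median of 0.06. BGLU45 had 8.47, 9.94 and 10.26 in 8C and 16C, against 7.37, 7.87 and 8.39 in 2C and 4C (change 1.93 ± 0.23, limma adjusted p = 0.000375). BGLU46, which acts like BGLU45 on glucosides of lignin precursors, rose by 0.58 ± 0.15, BGLU25 by 0.63 ± 0.12 and BGLU47 by 0.22 ± 0.06. BGLU44 went the other way, with 4.08, 4.22 and 4.46 in 8C and 16C, against 5.17, 6.04 and 7.82 in 2C and 4C (change -2.07 ± 0.17, adjusted p = 6.18e-05), and BGLU41 fell by 0.70 ± 0.12. BGLU44 also passed for 4C minus 2C, at -1.89 (limma adjusted p = 0.0129, and 0.0359 with 16C replicates 1 and 2 averaged). Of 51 measured UDP-glycosyltransferases, which attach sugars to small molecules, 12 rose, 5 fell and 34 did not pass, with a median of 0.06. UGT76D1 rose by 1.28 ± 0.25 and UGT73B5 by 1.09 ± 0.23. UGT76C2, which inactivates the hormone cytokinin, rose by 0.71 ± 0.13 and UGT72B3 by 0.39 ± 0.08. UGT78D1, a flavonol glycosyltransferase, fell by 0.50 ± 0.11 and UGT71C3 by 0.75 ± 0.17. Of 11 measured tau glutathione transferases, which tag toxic compounds, 2 rose and 0 fell, with GSTU22 higher by 0.68 ± 0.15 and GSTU16 by 0.57 ± 0.17. Of 23 measured cytochromes P450, most of them of the CYP71B subfamily, 2 rose, 1 fell and 20 did not pass. CYP71B34 rose by 0.97 ± 0.12, with class means of 5.29 ± 0.26 (2C), 5.93 ± 0.09 (4C), 7.09 ± 0.23 (8C) and 6.08 ± 0.22 (16C), and its step between 16C and 8C passed as well (-1.01 ± 0.17, adjusted p = 0.0412), but not for CYP71B34 with 16C replicates 1 and 2 averaged (adjusted p = 0.155). CYP71B26 rose by 1.08 ± 0.22, and CYP51G2 changed by -0.70 ± 0.23 (adjusted p = 0.049).

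Cell wall families are described by their members, and their counts are to be read against the 11.5% of all genes that were higher and the 11.3% that were lower. Of 15 measured endoglucanases of the GH9 family, which cut glucan chains, 2 rose and 3 fell. GH9B8 had 5.29, 5.58 and 5.80 in 8C and 16C, against 7.02, 7.62 and 8.24 in 2C and 4C (change -2.02 ± 0.14, limma adjusted p = 3.24e-05), GH9B7 fell by 1.05 ± 0.20 and GH9C2 by 0.74 ± 0.17. GH9C1 rose by 0.90 ± 0.17 (adjusted p = 0.00444), with class means of 4.74 ± 0.35 (2C), 4.83 ± 0.21 (4C), 4.92 ± 0.23 (8C) and 6.45 ± 0.46 (16C), so that the rise lay in 16C. Of 19 measured expansins and expansin-like genes, which loosen the wall, 2 rose and 2 fell. EXLB1 had 5.23, 5.43 and 5.55 in 8C and 16C, against 5.68, 6.92 and 8.75 in 2C and 4C (change -1.64 ± 0.19, adjusted p = 0.000307), and EXLA2 fell by 0.79 ± 0.20. The rises were those of EXPA7 and EXPA18, by 0.37 ± 0.08 and 0.34 ± 0.08, which are markers of root hairs. Of 10 measured XTH enzymes, which cut and rejoin xyloglucan, 1 rose, 3 fell and 6 did not pass. XTH19 rose by 1.03 ± 0.27 (adjusted p = 0.0192), XTH21 fell by 0.88 ± 0.18 (adjusted p = 0.00612), and EXGT-A3 and XTH20 fell by 0.75 ± 0.22 and 0.39 ± 0.11. XTH18 had 10.34 to 10.79 in 8C and 16C, against 6.25 to 10.29 in 2C and 4C, without overlap, but its change of 1.39 ± 0.51 did not pass (adjusted p = 0.0738). Of 8 measured genes of the cellulose synthase-like family 1 rose and 2 fell. CSLC04, of a clade that makes the xyloglucan backbone, fell by 1.81 ± 0.44 (adjusted p = 0.0144), and CSLD2, which acts in root hair growth, rose by 1.48 ± 0.41 (adjusted p = 0.025), with 1 array of 2C at 7.83 far below the rest. Both subtilisin-like proteases that passed, of 7 measured, fell. SBT4.12 fell by 2.01 ± 0.27 and SBT3.12 by 1.24 ± 0.10 (adjusted p = 5.13e-05).

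Glutamate receptor-like channels let ions pass when amino acids bind. Of 8 measured 4 rose, 1 fell and 3 did not pass, with a median of 0.30. This count and those of the families below stand beside 11.5% of all genes higher and 11.3% lower. ATGLR1.2 had 5.57, 5.71 and 6.07 in 8C and 16C, against 4.40, 5.09 and 5.34 in 2C and 4C (change 0.70 ± 0.16, limma adjusted p = 0.0108). GLR3.3, which carries wound signals, rose by 0.50 ± 0.11, GLR1.4 by 0.50 ± 0.13 and GLR2.8 by 0.34 ± 0.08, whereas GLR3.6 fell by 0.42 ± 0.14. These 4 rises were each under 2-fold. Of 15 measured tetraspanins, small membrane proteins that form patches with partners, 2 rose and 3 fell. TET6 had 6.65, 6.74 and 7.06 in 8C and 16C, against 8.04, 8.63 and 9.73 in 2C and 4C (change -1.94 ± 0.17, adjusted p = 7.11e-05). TET5 fell by 1.51 ± 0.15, and it also passed between 4C and 2C, at -1.93 ± 0.22 (adjusted p = 0.00658). PRA1.B6, a membrane protein of vesicle traffic, rose by 1.88 ± 0.38, SEC1B, of vesicle fusion, by 1.23 ± 0.24, and VPS60.1, of the machinery that sorts membrane proteins for the vacuole, by 0.71 ± 0.15. VPS2.2 of the same machinery fell by 2.56 ± 0.48 (adjusted p = 0.00389), and 11 of 14 measured VPS genes did not pass. Of 11 measured autophagy genes, most of them of the ATG8 family, ATG8B alone passed, and it fell by 0.85 ± 0.14 (adjusted p = 0.00217). RALFL32, of a family of growth-regulating peptides, was the only 1 of 17 measured CLE and RALF genes that passed, and it fell by 1.34 ± 0.22 (adjusted p = 0.00177).

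In hormone and transport families few members passed. GH3.3, which joins auxin to amino acids, had 7.70, 8.11 and 9.34 in 8C and 16C, against 5.58, 6.24 and 8.29 in 2C and 4C (change 1.75 ± 0.42, limma adjusted p = 0.0128), and the other 4 measured GH3 genes did not pass. All 5 changes of this family were positive, between 0.13 and 1.75. Of 7 measured Aux/IAA repressors IAA34 rose by 0.31 ± 0.09 and IAA29 fell by 0.66 ± 0.21. Of 12 measured nitrate and peptide transporters AT1G72125 rose by 0.94 ± 0.12 (adjusted p = 0.000402) and AT1G33440 fell by 1.49 ± 0.44 (adjusted p = 0.0324). Of 8 measured aldehyde dehydrogenases ALDH2C4 rose by 0.97 ± 0.23, ALDH10A8 fell by 0.72 ± 0.20 and ALDH6B2 by 0.57 ± 0.18. The class III peroxidases AT5G64120 and AT5G66390 changed by 1.11 ± 0.35 and -1.15 ± 0.34 (adjusted p = 0.0398 and 0.0327). These families have 5 to 12 measured members each, too few for a share to be read against the 11.5% and 11.3% of all genes.

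Markers of cell types were few. CO2 (AT1G62500), whose promoter drives the reporter, had 3.97, 4.07 and 4.25 in 8C and 16C, against 3.78, 4.02 and 4.70 in 2C and 4C, and its change of -0.06 ± 0.14 did not pass (limma adjusted p = 0.786). No detection call goes with these signals, so they do not say whether the transcript was present. JKD, a zinc finger protein of the ground tissue, rose by 0.30 ± 0.08 (adjusted p = 0.0281), with class means of 5.51 (2C), 5.94 (4C), 6.34 (8C) and 5.70 (16C). Without the 8C arrays the change of JKD was -0.021. The third measured cortex marker, AT1G09750, changed by -0.49 ± 0.24 (adjusted p = 0.159). Both measured markers of root hairs of 11 listed, EXPA7 and EXPA18, were higher. EXPA7 averaged 4.47 (2C), 4.41 (4C), 4.42 (8C) and 5.21 (16C), and EXPA18 5.46, 5.39, 5.37 and 6.17 in the same classes, so both rises lay in 16C. Without the 16C arrays the change of EXPA7 was -0.023 and that of EXPA18 -0.058. Of 6 listed shoot genes, LHCB4.1, of the light-harvesting antenna, fell by 1.14 ± 0.30 (adjusted p = 0.019) and RCA, which activates Rubisco, changed by -0.24 ± 0.53. GSO1, also called SGN3, of the endodermis changed by -0.11 ± 0.14. The markers of stele, root cap and meristem had 0 measured genes, so the share of other cell types in the classes was not tested for them.

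Transcripts of the organelles had negative medians with few calls. Of 69 measured plastid genes 1 fell and 68 did not pass, with a median change of -0.37. Of 16 mitochondrial genes 2 fell, with a median of -0.32, and 11.3% of all genes were lower. The calls were clpP, a plastid protease subunit, at -0.87 ± 0.29 (limma adjusted p = 0.0498), ccb382, of cytochrome c assembly, at -0.68 ± 0.13, and nad4L, of complex I, at -0.44 ± 0.13. For 4C minus 2C, nad4L changed by -1.10 (limma adjusted p = 0.0389, but 0.0774 with 16C replicates 1 and 2 averaged). Organelle transcripts are not made in the nucleus, and their mean per array ranged from 5.84 to 7.39 in 8C and 16C and from 5.94 to 8.29 in 2C and 4C.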

How the data were processed

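Nuclear RNA of 4 DNA content classes was measured on 12 ATH1 arrays. The deposited table gives signals on a log2 scale, computed with RMA per the submitters' processing notes. RMA subtracts background, equalises the array distributions and summarises each probe set. For its version and settings: not given in the sources used here. Array medians of 5.23 to 5.37 fit that scale. The number of arrays limits the precision. The table held 0 columns of other samples.

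limma 3.58.1 (lmFit, contrasts.fit and eBayes, under R 4.3.3) estimated 1 mean per class, with p-values adjusted by Benjamini-Hochberg over 22746 probe sets. Errors are standard errors for changes and SDs for means. P-values weigh each difference against the spread between arrays, and the labels do not tell which sources of variation that spread covers. The fit was tested on simulated data. Replicate numbers were not taken as pairs: deviations of arrays with the same number correlated at -0.487 to 0.489, with 9 of 18 pairs over 0.1.

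Single-gene probe sets (13513, of which 13436 matched the TAIR10.1 gene table) gave names; 503 probe sets name several genes and 8730 none here. A gene with several probe sets was represented by its brightest. Named genes were the 5 largest rises and falls of all genes and the 15 largest of genes with a symbol, among calls whose arrays lay apart, and, for each list or family, at most 4 called members, taken by smallest p, or 1 member, of smallest p, if 0 passed. Members and lists were chosen with earlier results of these data known. The histone list and several family name patterns were changed after the files were seen, and further members of the lists are named after their values were seen. Control measures were compared by exact permutation over 924 assignments of the arrays. A planned search for promoter motifs was not made, as no sequence was used here. Alternatives included a replicate block, other variance models, filters and scalings, covariates, and leaving out arrays or classes. Families of fewer than 5 measured genes were not summarised, and some results are not reported here.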

Additional observations from a re-analysis of the deposited data

Results flagged for a closer look

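Among 274 groups of 6 arrays examined, the 2 sides of each of 132 named genes and 5 control measures, 19 held 1 array far from the other 5 by the gap to its nearest neighbour as a share of the range, judged by Dixon's test at 95%. Chance gives about 1 such group in 20 for 6 independent draws from 1 normal distribution. These groups each pool 2 classes and share the same arrays, so that rate does not apply to them directly. The causes were not tested.

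On the side of 8C and 16C, 8C replicate 1 stood apart for most of these genes. It was high for AT1G51820 (9.76), AT5G49780 (9.69), CHLM (9.04), SEC1B (10.07) and TET6 (7.06), and low for BGLU45 (8.47) and IQD28 (4.71). VPS60.1 was highest in 16C replicate 2 (9.61), within a range so narrow that the gap was 0.05.

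On the side of 2C and 4C, 2C replicate 1 stood apart for most. It was high for AT1G33440 (7.70), HTB4 (8.67), TUB6 (8.32) and ZAP1 (9.97), and low for ATGLR1.2 (4.40), CSLD2 (7.83), GLR2.8 (4.39), PRN (5.77) and VPS60.1 (8.01). That array also had the lowest score on the first principal component, -89.6. The array of 2C replicate 2 was high for EXLA2 (6.44), and 2C replicate 3 was high for GH3.3 (8.29).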

How the results depend on the processing

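The count of 5715 calls between the sides stayed within 1.5 times of itself under the replicate block (5672), which changed no call count of this contrast by more than that, a random block (5984), trend and robust variances (5788), array weights (6815), 2 groups of 6 (4771), no dim probe sets (4822), no shared-type probe sets (5528), cyclic loess (5554), scaling to reference genes (5104), the mean of 16C replicates 1 and 2 (4162) and without the 4C class (5083). It was 1502 with a 2-fold minimum, which is stricter by construction, 3025 with single-gene probe sets only, where fewer were tested, 802 with the poly-A covariate, 0 with the actin covariate (1568 at an unadjusted p below 0.05), and 3167, 2185 and 3492 without the 2C, 8C or 16C class, where fewer arrays were used. Leaving out 1 array gave 4040 (without 16C replicate 2) to 6034 (without 2C replicate 3). With a 2-fold minimum 39.9% of calls were higher, against 48.3%. Between 4C and 2C, 137 calls became 81 with the replicate block, 49 with 16C replicates 1 and 2 averaged, 80 and 14 without the 8C or 16C class and 0 with the actin covariate (1109 at an unadjusted p below 0.05 by limma), and leaving out 1 array gave 38 (without 4C replicate 3) to 438 (without 2C replicate 3). It was 76 without 2C replicate 2, 39 without 4C replicate 1 or 4C replicate 2, 65 without 8C replicate 3, 48 without 16C replicate 1 or 16C replicate 2 and 61 without 16C replicate 3. Between 16C and 8C, 59 became 27 with the replicate block, 776 with array weights, 6 with 16C replicates 1 and 2 averaged, 24 without the 4C class, 91 without the 2C class and 1 with the actin covariate, and leaving out 1 array gave 6 (without 16C replicate 2) to 126 (without 8C replicate 2). It was 7 without 16C replicate 1 or 8C replicate 3, 8 without 8C replicate 1, 110 without 2C replicate 1 and 36 without 4C replicate 1. The covariates and left-out classes were chosen for these within-side counts after seeing the data. Of 127 called named genes under all settings, 3671 values in all, 3079 kept direction and call, 577 lost the call and 15 changed sign. The sign changed with the actin covariate for AT1G33440 (0.39), AT5G66390 (0.13), ATGLR1.2 (-0.23), AUR2 (0.29), CSLD2 (-0.20), TUB7 (0.23), TUB9 (0.045) and clpP (0.074), with the poly-A covariate for ALDH10A8 (0.087) and AT5G64120 (-0.039), without the 8C class for AT2G36680 (-0.040) and JKD (-0.021), without the 16C class for EXPA18 (-0.058) and EXPA7 (-0.023), and without the 2C class for nad4L (0.11). Other causes were not tested. With the poly-A covariate 33 of the 127 kept the call. Without 1 array the actin difference was -0.70 to -0.53, and it lost its call without 8C replicate 1, 2 or 3 or 16C replicate 3 (exact permutation, adjusted p = 0.0541). The poly-A difference kept its call without each array in turn, and both kept it with the replicate block (exact permutation, adjusted p = 0.0463). Only 12 arrays, and no detection calls, limit what low signals show.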

Other observations

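Called genes were spread over all nuclear chromosomes. The share called higher ran from 10.3% on chromosome 3 to 12.4% on chromosome 1, and the share called lower from 8.85% on chromosome 2 to 12.6% on chromosome 1. Longer genes were called more often. With genes split into 4 equal groups by length in the gene table, in the shortest (78 to 1431 bp) 9.35% were higher and 6.87% lower, and in the longest (3030 to 26499 bp) 13.6% were higher and 16.3% lower. The median change was 0.07 in the shortest and 0.00 in the longest. Called probe sets also had higher signals, with medians of 6.56 for those called higher and 6.59 for those called lower, against 5.34 over all probe sets.

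Other named rises were those of pEARLI4 (1.59 ± 0.16), ZW9 (1.29 ± 0.24) and MEF8S, an RNA editing factor of mitochondria (1.23 ± 0.12). PUB43 rose by 0.52 ± 0.11 and PUB49 fell by 0.43 ± 0.10 among 9 U-box ubiquitin ligases. The 7 others did not pass but all had positive changes. The largest was that of PUB19, at 1.43 ± 0.49 (limma adjusted p = 0.0576), whose arrays lay apart. CML23 was the 1 of 8 calmodulin-like genes that passed, higher by 0.44 ± 0.12. Over all genes 11.5% were higher and 11.3% lower.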
